A study of Rattus norvegicus with 6 samples.

Results

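In all, 10 enzymes and helper proteins that modify and crosslink collagen were followed across the arrays: the lysyl oxidases Lox, Loxl1 and Loxl2, the prolyl 4-hydroxylase subunits P4ha1 and P4ha2, the lysyl hydroxylases Plod1, Plod2 and Plod3, the hydroxylase partner P3h4 and the chaperone Serpinh1. Every probe set that the array annotation assigned to 1 of these symbols alone was taken, which gave 18 of 31042 probe sets and all 10 genes. P3h4 had 5 probe sets, Lox, Loxl2, P4ha2 and Serpinh1 had 2 each, and the other 5 genes had 1 each. The samples were whole rat pituitaries kept in organ culture, 3 without hormone (control) and 3 given 10 nM GnRH, the hypothalamic peptide that stimulates the gonadotropes of the pituitary. The sources used here give no strain, age, sex or treatment time. No label says that the samples of a group came from separate animals or cultures, so the p-values reflect only how far these samples differed. Part of that spread may be technical, but control 3 also differed from controls 1 and 2 in sex-linked genes. A whole gland holds many cell types, so fewer cells of a type and less RNA per cell cannot be told apart.

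Collagen chains are modified in the endoplasmic reticulum before they fold. Prolyl 4-hydroxylases make the hydroxyproline that stabilises the triple helix, and lysyl hydroxylases make the hydroxylysine that carries sugars and later takes part in crosslinks. Serpinh1 (Hsp47) holds the folded helix on its way out of the cell, and outside the cell lysyl oxidases, which need copper, oxidise lysine and hydroxylysine so that collagen and elastin fibres become crosslinked. In the pituitary, collagen lies in the capsule, around the capillaries and in the basement membranes around cell cords.

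The arrays carried the high growth hormone and prolactin signal of a pituitary, with log2 intensities of 14.09 to 14.25 for Gh1 and 13.83 to 14.21 for Prl. Control 3 stood apart from the other controls, with a Pearson correlation of 0.983 and 0.986 with controls 1 and 2 across probe sets, against 0.994 between those 2 arrays and 0.988 to 0.991 with the GnRH arrays. Xist, the RNA that silences an X chromosome in female cells, divided the arrays in the same way: on its most divided probe set control 1 had a log2 value of 3.91, control 2 of 3.66 and control 3 of 9.77, while the GnRH arrays had 9.73, 9.16 and 9.49. Eif2s3y, a gene of the Y chromosome, ran the other way: controls 1 and 2 had log2 values of 6.48 and 6.56, control 3 was low at 2.76, and the GnRH arrays gave 2.42, 2.29 and 2.06. Only controls 1 and 2 thus combined low Xist with high Eif2s3y, as male tissue would. Control 3 and the GnRH arrays combined high Xist with low Eif2s3y, as female tissue would. The sex of the animals is not in the labels. In the fit of all 6 arrays, control 3 alone separates this division from GnRH. Differences are therefore also given against controls 1 and 2 and against control 3. In the former, and in any fit without control 3, this division and GnRH cannot be told apart. In the latter the control arm is 1 array with no spread of its own, and limma assumes that it varies like the GnRH arrays.

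Loxl1 and P3h4 were the member genes that rose with GnRH, Loxl1 by 1.79-fold and P3h4 by 2.0-fold and 1.59-fold on the 2 of its 5 probe sets that passed the threshold, but not on its brightest. By the brightest probe set of each gene, 1 of the 10 members passed (Loxl1), where 0.605% of 14217 named genes passed. The prolyl 4-hydroxylases, the lysyl hydroxylases, Serpinh1, Lox and Loxl2 had no probe set past the threshold. Of the 18 member probe sets, 3 passed it, all higher with GnRH (limma, Benjamini-Hochberg adjusted p under 0.05), where 0.464% of all 31042 probe sets passed and 0.422% passed and were higher. The groups did not overlap in 8 member probe sets, 7 of them higher with GnRH, against 16.7% of all probe sets in either direction and 7.06% higher. The 10 genes were chosen with results of this comparison known. The counts, differences and p-values of the members are therefore a description of these arrays and no independent evidence of a change. The median log2 difference, GnRH minus control, was 0.16 over the 18 member probe sets and -0.0249 over all probe sets. Of the 18, 14 lay above 0, against 13236 of all 31042. P3h4 supplied 5 of the 18. By the brightest probe set of each gene, the median was 0.0991 and 8 of the 10 lay above 0. Among named genes these values were -0.00886 and 6761 of 14217. The groups did not overlap in 3 of the 10 genes, against 17.3% of named genes.

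**Figure D1:**
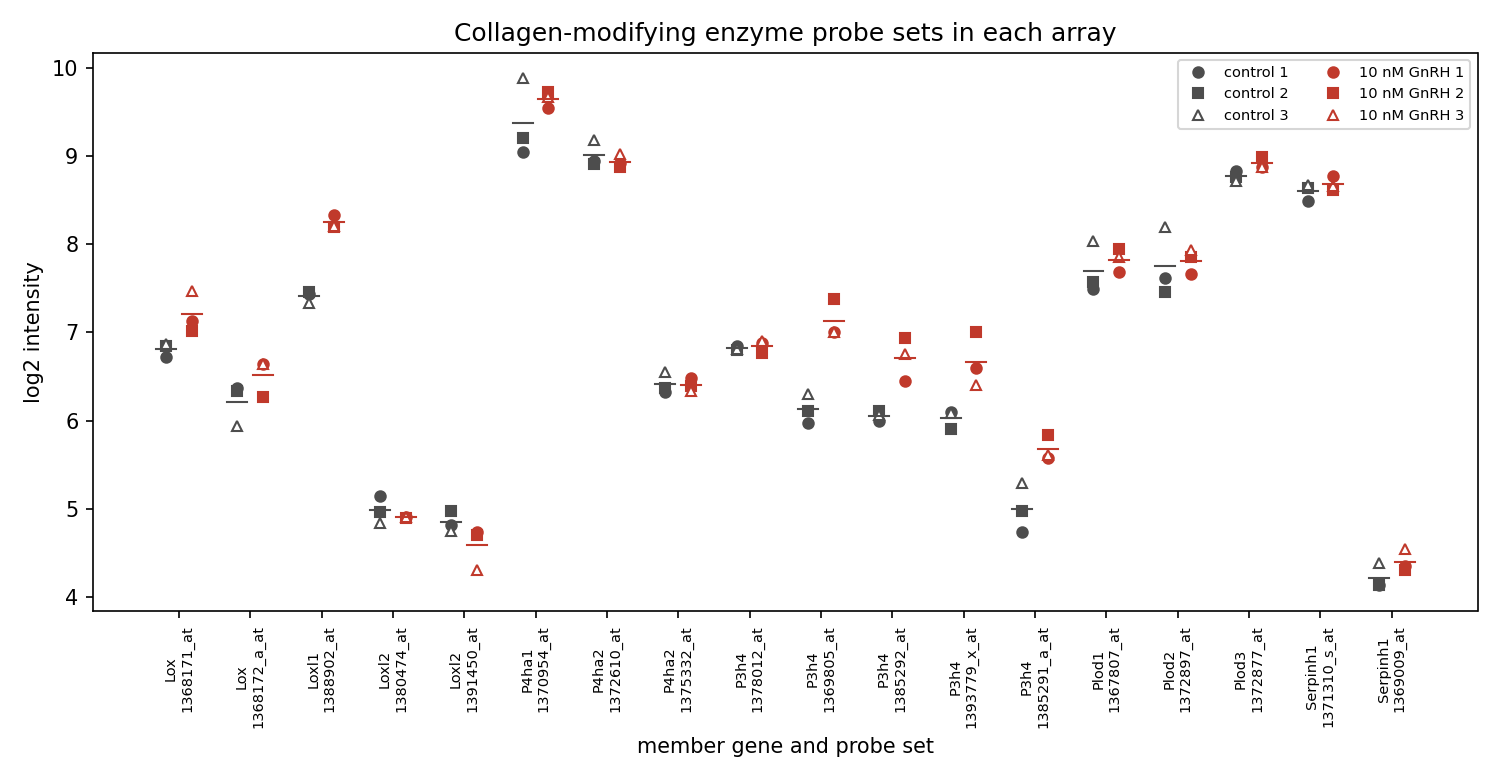
Log2 intensity (vertical axis) of the 18 member probe sets (horizontal axis, grouped by gene) in each of the 6 arrays; grey symbols are controls, red symbols are 10 nM GnRH, and short lines are group means. Loxl1 lies at 7.33 to 7.46 in controls and 8.20 to 8.33 with GnRH, while the control 3 triangle lies above all other arrays for P4ha1, Plod1 and Plod2.

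The lysyl oxidases are the secreted enzymes that start the crosslinks. Loxl1, the relative best known for elastic fibre assembly, had log2 intensities of 7.44, 7.46 and 7.33 in controls 1 to 3 and 8.33, 8.20 and 8.21 with GnRH. All GnRH arrays lay above all controls, and the SD within each group was 0.07 (n = 3). The difference was 0.84 ± 0.09 (SE) on the log2 scale, with a 95% interval from 0.64 to 1.03 (limma adjusted p = 0.00586). It was 0.80 against controls 1 and 2 and 0.91 against control 3. Loxl1 thus kept its size whichever controls were used, and it passed the threshold whichever 1 array was left out.

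Lox, the founding lysyl oxidase, had a smaller difference in the same direction. Its brighter probe set, 1368171_at, gave 6.72, 6.85 and 6.87 in controls and 7.13, 7.01 and 7.47 with GnRH. These groups did not overlap, but the difference of 0.39 ± 0.12 (SE), with a 95% interval from 0.12 to 0.65, did not pass the threshold (limma adjusted p = 0.245). The other probe set, 1368172_a_at, gave 6.37, 6.33 and 5.94 against 6.64, 6.27 and 6.64, with overlapping groups and a difference of 0.30 ± 0.14 (SE; limma adjusted p = 0.413). When arrays were weighted by limma, control 3 having the least weight (0.298), the brighter probe set passed at 0.36 (limma adjusted p = 0.0485). With these weights 3020 of all 31042 probe sets passed. Controls 1 and 2 then weigh more, so GnRH is less well separated from the division in Xist.

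Loxl2, a relative that crosslinks the type IV collagen of basement membranes, was dim on both of its probe sets. Its probe sets stood at percentiles 24.7 and 20.7 of all probe sets by mean intensity, and the deposited table has no detection calls. The brighter, 1380474_at, had 5.15, 4.96 and 4.84 in controls and 4.91, 4.89 and 4.91 with GnRH. The other, 1391450_at, had 4.82, 4.97 and 4.75 against 4.74, 4.70 and 4.31. The differences were -0.082 (95% interval -0.30 to 0.13) and -0.26 (-0.54 to 0.009), with limma adjusted p = 0.765 and 0.424. The groups of 1391450_at did not overlap, the GnRH arrays being lower, but both intervals included 0. No direction is therefore given for Loxl2, whose signal was dim.

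P3h4 (also called Sc65 or Leprel4) has no hydroxylase activity of its own and forms a complex in the endoplasmic reticulum with the prolyl 3-hydroxylase P3h3 and the lysyl hydroxylase Plod1. On 1369805_at it had 5.97, 6.11 and 6.30 in controls and 7.0, 7.38 and 7.0 with GnRH. The lowest GnRH array lay above the highest control, control 3. The difference was 1.0 ± 0.13 (SE), with a 95% interval from 0.72 to 1.28 (limma adjusted p = 0.0116). On 1385292_at the values were 5.99, 6.11 and 6.06 against 6.45, 6.94 and 6.75, a difference of 0.66 ± 0.12 (SE; limma adjusted p = 0.0494).

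The other P3h4 probe sets divided. On 1385291_a_at the values were 4.74, 4.97 and 5.29 against 5.57, 5.84 and 5.61 (difference 0.67, limma adjusted p = 0.0723). On 1393779_x_at, whose suffix marks probes that can bind other transcripts, they were 6.10, 5.90 and 6.08 against 6.60, 7.0 and 6.40 (difference 0.64, limma adjusted p = 0.0929). Neither passed the threshold, although their groups did not overlap. The brightest of the 5, 1378012_at, had 6.85, 6.80 and 6.81 against 6.88, 6.77 and 6.90, a difference of 0.031 with a 95% interval from -0.15 to 0.22 (limma adjusted p = 0.909). Its groups overlapped and its interval lay below those of the other 4. Across the 6 arrays its Pearson correlation with the other 4 was -0.08 to 0.07, while those 4 had 0.85 to 0.97 among themselves; the points share the arrays and the group difference. The array annotation lists 1385291_a_at, 1385292_at and 1393779_x_at under 1 cDNA sequence, so these 3 are not separate measurements, and it lists 1369805_at and 1378012_at under a sequence each. Why the brightest probe set differs was not tested.

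The P3h4 calls were less stable than that of Loxl1. On 1369805_at the difference did not pass without control 2 (0.99, limma adjusted p = 0.0602), without GnRH 2 (0.87, 0.0545) or against control 3 alone (0.83, 0.0559). On 1385292_at leaving out any of 4 arrays ended it. The difference without control 1 was 0.63 (limma adjusted p = 0.152), without control 2 it was 0.69 (0.144), without GnRH 2 it was 0.55 (0.208) and without GnRH 3 it was 0.65 (0.149). It did not pass against control 3 alone (0.65, 0.149) or with median centring, quantile normalization, cyclic loess or a pseudocount of 16 (0.0607 to 0.099). Without control 3, 1385291_a_at and 1393779_x_at passed, at 0.82 and 0.67 (limma adjusted p = 0.0024 and 0.0263), in a fit where the division in Xist coincides with the groups. Against control 3 alone, their differences were 0.38 and 0.59. The mean of all 5 probe sets differed by 0.60 ± 0.10 (SE; limma adjusted p = 0.0414).

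**Figure D2:**
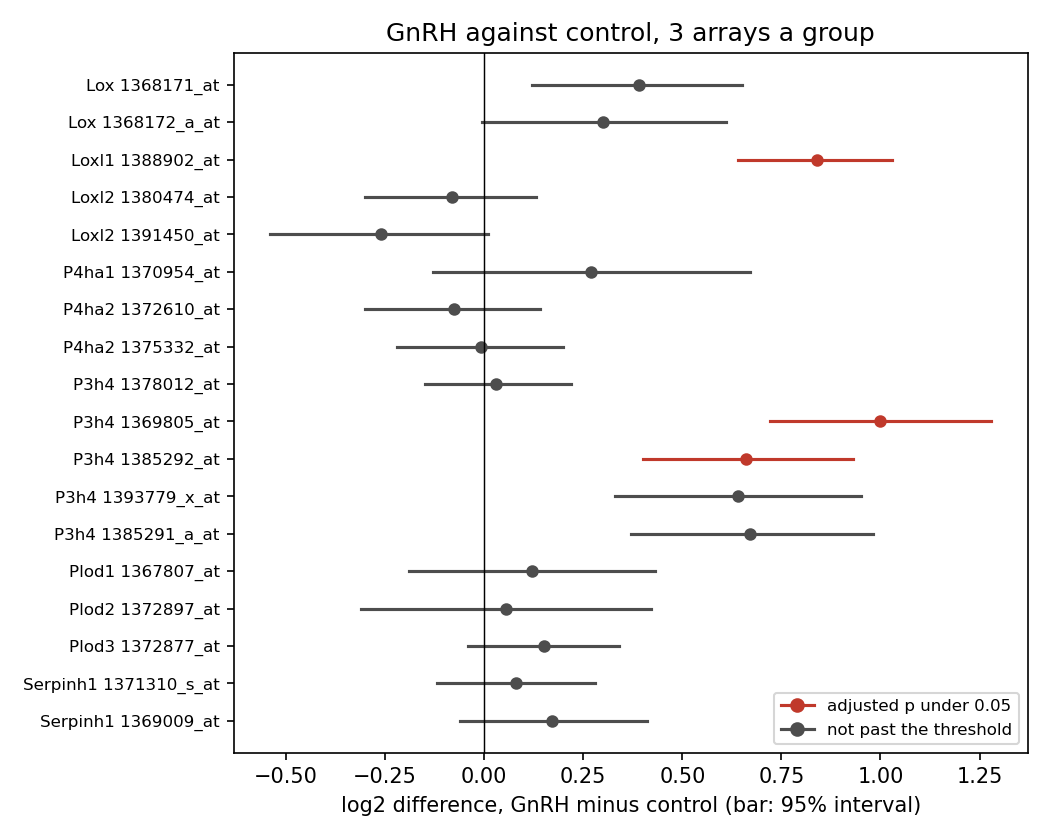
Log2 difference, GnRH minus control (horizontal axis), for each member probe set (vertical axis), with bars for the 95% interval from the limma fit on 3 arrays a group; red marks an adjusted p under 0.05. The intervals of Loxl1 (0.64 to 1.03) and of 4 of the 5 P3h4 probe sets lie above 0, and that of the fifth, 1378012_at, runs from -0.15 to 0.22.

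The stretches of 250 bases before the annotated starts of Loxl1 and P3h4 are shown because these genes rose together. They come from RefSeq on the GRCr8 build, which held an entry for 8 of the 10 members; Lox and Loxl2 had none. The Loxl1 stretch is chr8:67612225-67612474, minus strand, and the P3h4 stretch is chr10:85845477-85845726, minus strand. Capitals mark both forms of the core of the hypoxia response element, ACGTG and GCGTG, on either strand, so that CACGT or CACGC marks the same letters on the opposite strand.

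Loxl1: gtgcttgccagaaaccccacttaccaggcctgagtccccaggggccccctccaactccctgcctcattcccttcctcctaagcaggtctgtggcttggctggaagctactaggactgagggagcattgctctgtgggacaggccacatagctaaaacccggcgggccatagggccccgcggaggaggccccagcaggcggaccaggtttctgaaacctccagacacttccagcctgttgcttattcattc

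P3h4: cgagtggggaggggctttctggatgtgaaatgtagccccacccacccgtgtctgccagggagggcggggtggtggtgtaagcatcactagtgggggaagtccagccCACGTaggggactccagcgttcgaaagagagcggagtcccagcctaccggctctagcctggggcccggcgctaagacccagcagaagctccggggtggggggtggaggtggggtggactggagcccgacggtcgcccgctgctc

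The P3h4 stretch held ACGTG at 1 place, starting 144 bases before the gene's start, and no GCGTG, and the Loxl1 stretch held neither form. ACGTG was found in 3 of the 8 member stretches (P3h4, Plod2 and P4ha2) and in 16.6% of 33469 promoters of the same length. GCGTG was found in 5 of the 8 (Plod1, Plod2, Plod3, P4ha1 and P4ha2) and in 25.9% of all promoters. TGACG, the core of the cAMP response element, was found on either strand in P4ha2 alone and in 18.2% of all promoters; it overlaps ACGTG where the letters TGACGTG occur. The GC box, GGGCGG, was found on either strand in 6 of the 8 (not in Loxl1 or P4ha1) and in 30.5% of all promoters. A match is a description of the letters and no evidence of binding.

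The genes whose values followed P3h4 most closely over the 6 arrays, by Pearson correlation with 1369805_at, were Tmem238, Mcee, Hepacam2, Creb3l1, Cacna1g and Gnrhr. Their correlations ran from 0.994 to 0.9969; all 6 points share the group difference, so these are descriptions with no test. Creb3l1, a transcription factor of the endoplasmic reticulum membrane that drives collagen genes in bone, had 7.37, 7.41 and 7.62 in controls and 8.67, 9.11 and 8.51 with GnRH. Gnrhr, the GnRH receptor, had 6.35, 6.31 and 6.66 against 7.31, 7.76 and 7.37 on the probe set concerned. As in P3h4 on 1369805_at, GnRH 2 was the highest array and control 3 the highest control in both genes. The log2 differences of the 6 genes ran from 0.21 for Mcee to 1.30 for Creb3l1.

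No prolyl 4-hydroxylase or lysyl hydroxylase probe set, 0 of 6, passed the threshold by limma, and 0 had an unadjusted p under 0.05, against 12.3% of all probe sets. P4ha1, the catalytic alpha subunit found in most tissues, had 9.05, 9.20 and 9.88 in controls and 9.54, 9.72 and 9.67 with GnRH. Control 3 was the highest of the 6 arrays and controls 1 and 2 were the lowest, so that the groups overlapped. The difference was 0.27 ± 0.18 (SE), with a 95% interval from -0.13 to 0.67 (limma adjusted p = 0.581). It was 0.52 without control 3, where it passed the threshold (limma adjusted p = 0.0109) but GnRH and the division in Xist cannot be told apart, and -0.23 against control 3 alone (0.53). With array weights it passed at 0.40 (limma adjusted p = 0.0437), in a fit where control 3 had the least weight and 3020 of all probe sets passed.

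P4ha2, another alpha subunit, on its brighter probe set, 1372610_at, gave 8.94, 8.91 and 9.18 without hormone and 8.92, 8.87 and 9.02 with it. The difference was -0.076, with a 95% interval from -0.30 to 0.14 (limma adjusted p = 0.79). The other probe set, 1375332_at, had 6.32, 6.37 and 6.55 against 6.48, 6.39 and 6.34, a difference of -0.0093 (-0.22 to 0.20, limma adjusted p = 0.978). Control 3 was again the highest array on both.

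Of the lysyl hydroxylases, Plod1 and Plod2 were also highest in control 3 and Plod3 was not. Plod1, which hydroxylates lysines of the helix, had 7.49, 7.57 and 8.04 in controls and 7.68, 7.94 and 7.85 with GnRH. Its difference was 0.12 ± 0.14 (SE), with a 95% interval from -0.19 to 0.43 (limma adjusted p = 0.769). Plod2, which hydroxylates lysines of the telopeptides at the chain ends, had 7.62, 7.46 and 8.19 against 7.66, 7.85 and 7.93. Its difference was 0.054 ± 0.17 (SE), with a 95% interval from -0.31 to 0.42 (limma adjusted p = 0.921). Plod3, which also transfers sugars to hydroxylysine, had 8.83, 8.76 and 8.72 against 8.88, 8.99 and 8.88. The Plod3 groups did not overlap, but the difference of 0.15 ± 0.09 (SE; 95% interval -0.04 to 0.34) did not pass the threshold (limma adjusted p = 0.515).

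Control 3 was the highest of all 6 arrays in 5 of the 6 prolyl 4- and lysyl hydroxylase probe sets, against 18.1% of all probe sets. It exceeded the mean of controls 1 and 2 by 0.75 for P4ha1, 0.65 for Plod2, 0.51 for Plod1, 0.26 and 0.20 for P4ha2 and -0.07 for Plod3. Over all probe sets the median of this value was -0.0465. The median SD among controls was 0.223 for these 6 probe sets and 0.124 for all, while the median SD among GnRH arrays was 0.0828 and 0.0917. P4ha1, Plod1 and Plod2 correlated with each other across the 6 arrays at 0.86 to 0.97, as points that share control 3. In P4ha1, Plod1 and Plod2, controls 1 and 2 were the lowest arrays, so that control 3 and all GnRH arrays lay above them, as in Xist. Differences from GnRH in these genes turned sign with the controls used. They were 0.52, 0.29 and 0.27 against controls 1 and 2, and -0.23, -0.22 and -0.38 against control 3, which is 1 array.

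**Figure D3:**
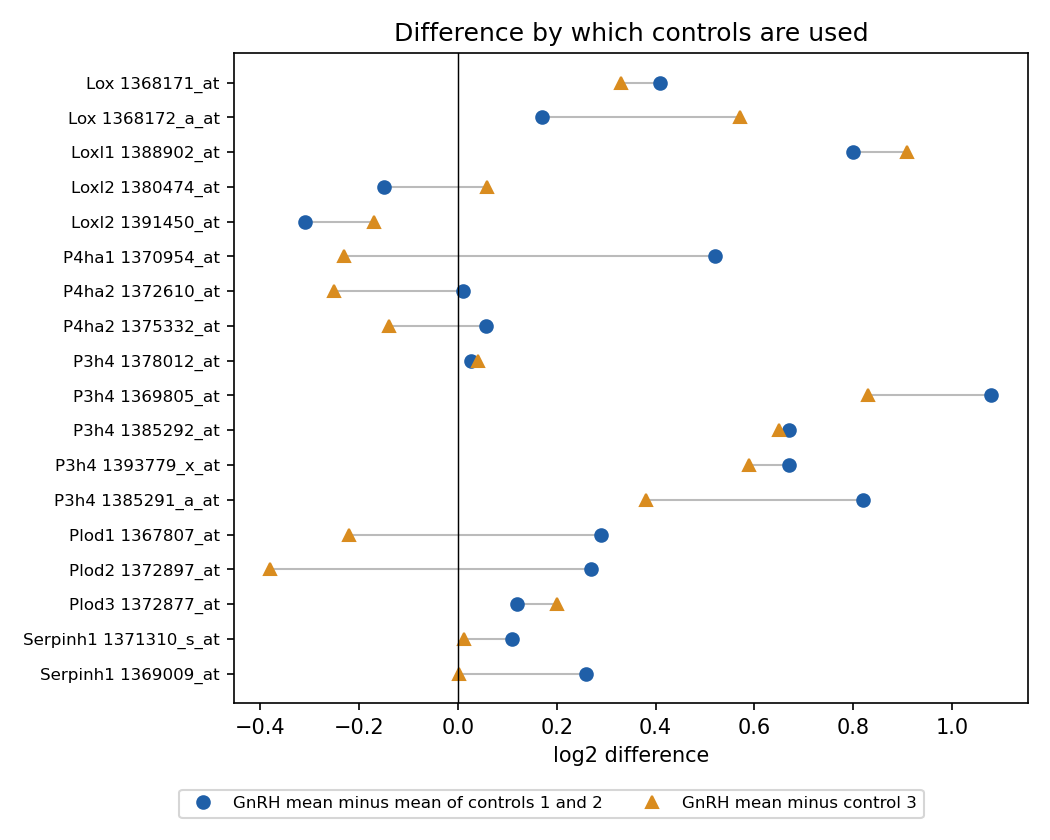
Log2 difference of the GnRH mean (horizontal axis) from the mean of controls 1 and 2 (blue circles) and from control 3 (orange triangles), for each member probe set (vertical axis). Loxl1 lies at 0.80 and 0.91, whereas P4ha1 moves from 0.52 to -0.23 and Plod2 from 0.27 to -0.38.

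P4ha1, P4ha2, Plod2 and Lox are known targets of the hypoxia-inducible factors, so 12 other genes of that response were set beside them. None of the 12 passed the threshold in GnRH against control by limma, 2 had an unadjusted p under 0.05 (Ndrg1 and Slc2a1) against 13.2% of named genes by brightest probe set, and their median difference was 0.0729. Ndrg1, a stress-responsive cytoplasmic protein, had the smallest p-value, at -0.50 (limma adjusted p = 0.0546), and the glucose transporter Slc2a1 followed at -0.28 (0.404). Control 3 lay above both other controls in 9 of the 12, against 5543 of 14217 named genes. The genes with the widest gaps, picked after their values were seen, were Ankrd37 (1.42 above controls 1 and 2), Egln3 (0.96), Bnip3 (0.81) and Ldha (0.60), in the direction of P4ha1, Plod1 and Plod2. In these picked genes every GnRH array also lay above controls 1 and 2, as in Xist. Others of the 12, such as Slc2a1 and Ndrg1, did not divide in this way. Whether these values move together for a shared reason was not tested.

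The 250 bases before the starts of P4ha1 and Plod2 are shown because control 3 stood farthest from the other controls in these members. The P4ha1 stretch is chr20:27844796-27845045, plus strand, and the Plod2 stretch is chr8:101964068-101964317, plus strand, on GRCr8 from RefSeq with ACGTG and GCGTG on either strand in capitals.

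P4ha1: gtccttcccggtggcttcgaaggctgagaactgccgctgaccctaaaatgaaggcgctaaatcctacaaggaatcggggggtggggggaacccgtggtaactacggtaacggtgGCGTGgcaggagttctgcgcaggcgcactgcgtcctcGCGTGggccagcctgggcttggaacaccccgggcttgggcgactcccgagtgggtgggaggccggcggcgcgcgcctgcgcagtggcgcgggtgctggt

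Plod2: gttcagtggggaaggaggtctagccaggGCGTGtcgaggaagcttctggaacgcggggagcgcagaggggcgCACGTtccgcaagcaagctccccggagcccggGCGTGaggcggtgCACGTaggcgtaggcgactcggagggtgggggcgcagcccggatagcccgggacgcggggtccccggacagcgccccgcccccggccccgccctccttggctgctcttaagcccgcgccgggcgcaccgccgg

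The Plod2 stretch held ACGTG at 2 places, starting 178 and 133 bases before the gene's start, and GCGTG at 2 places, 222 and 146 bases before it. The P4ha1 stretch held GCGTG at 2 places, 136 and 99 bases before the start, and no ACGTG.

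Serpinh1, the collagen chaperone, on its brighter probe set, 1371310_s_at, gave 8.49, 8.64 and 8.67 without hormone and 8.77, 8.61 and 8.66 with it. The groups overlapped, and the difference was 0.08 with a 95% interval from -0.12 to 0.28 (limma adjusted p = 0.757). The other probe set, 1369009_at, was dim, at percentile 14.7 of all probe sets. It had 4.13, 4.14 and 4.39 against 4.35, 4.30 and 4.54, a difference of 0.17 (-0.06 to 0.41, limma adjusted p = 0.539).

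Among 59 measured genes that fold, modify, export, process or supply collagen, or respond to hypoxia, and are no members, Creb3l1 rose by 1.30 ± 0.15 (SE; limma adjusted p = 0.00799), and the other 58 did not pass. By the brightest probe set of each gene, 0.605% of 14217 named genes passed. The groups did not overlap in 17 of the 59 genes (13 higher and 4 lower), against 17.3% of named genes. The median difference of the list was 0.109, against -0.00886 over all named genes. The list was drawn up with earlier results of these data known, the rise of Creb3l1 included. Without control 3, where the Xist division coincides with the groups, 16 of the 59 passed, 13 higher and 3 lower. In that fit 2309 of all 31042 probe sets passed. Against control 3 as the lone control, Creb3l1 and Col1a2 passed, both higher.

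Genes that modify prolines and lysines lay above 0 in 8 of 9 cases, with a median difference of 0.294. In the limma fit 0 passed the threshold and 4 had an unadjusted p under 0.05, against 13.2% of named genes. Control 3 lay above both other controls in 6 of the 9, against 39% of named genes. It follows by arithmetic that in those 6 the GnRH difference is smaller against control 3 than against controls 1 and 2. P3h3, the prolyl 3-hydroxylase of the P3h4 complex, had 6.63, 6.42 and 6.44 in controls and 7.14, 7.50 and 6.96 with GnRH. Its groups did not overlap, and its difference of 0.71 ± 0.13 (SE) just missed the threshold (limma adjusted p = 0.0546). P3h1, the prolyl 3-hydroxylase that works with Crtap, had a difference of 0.37 (limma adjusted p = 0.131). Among chaperones and export factors, Creb3l1 rose and 9 of 10 did not pass. Fkbp10, a prolyl isomerase that assists lysyl hydroxylation of telopeptides, had 0.62 (limma adjusted p = 0.0655). Control 3 lay above both other controls in 9 of these 10 genes. It exceeded the mean of controls 1 and 2 by 0.43 for Fkbp10 and 0.23 for Creb3l1.

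The oxidase relatives and elastic fibre partners lay below 0 in 4 of 5 cases. By limma 0 passed the threshold and 1 had an unadjusted p under 0.05. Among all named genes 13.2% had such a p, the share to set beside each such count here. The lowest p-values were those of Efemp2 (-0.27, limma adjusted p = 0.369), a scaffold for Lox on elastin, and the matrix protein Fn1 (-0.23, 0.459). Elastin itself (Eln) had 0.0069. Among processing and fibril assembly genes, 0 of 6 passed by limma and 3 had an unadjusted p under 0.05. Pcolce, the enhancer of procollagen C-proteinase, had 0.61 (limma adjusted p = 0.118), and decorin (Dcn) had -0.63 (0.194). In both, control 3 differed from the mean of controls 1 and 2 in the same direction, by 0.46 for Pcolce and -0.65 for Dcn. Of 12 collagen chains 0 passed by limma, 5 had an unadjusted p under 0.05, 9 lay above 0 and the median was 0.254. Col1a2 had 0.61 (limma adjusted p = 0.172) and Col18a1 had 0.36 (0.185). Control 3 lay above both other controls in 1 of the 12 chains. Of 5 cofactor genes 0 passed by limma, also at an unadjusted p under 0.05, with the copper chaperone Atox1 at 0.26 (limma adjusted p = 0.432) and the copper transporter Slc31a1 at 0.21 (0.475).

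**Figure D4:**
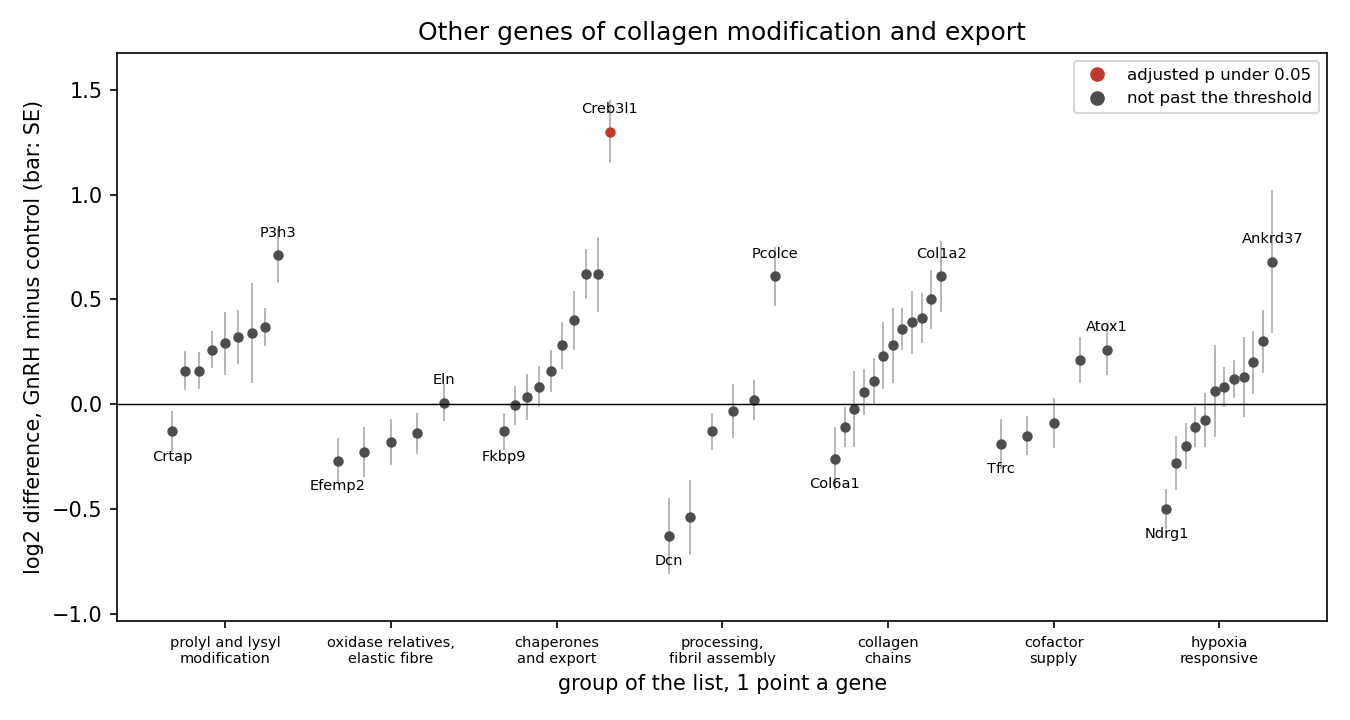
Log2 difference, GnRH minus control (vertical axis), of 59 genes in 7 groups (horizontal axis), 1 point a gene with its SE as a bar; red marks an adjusted p under 0.05, and the lowest and highest gene of each group are named. Creb3l1 at 1.30 is the only red point, and P3h3 at 0.71 tops the proline and lysine modifying genes.

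Fibroblasts and pericytes are the cells that make most fibrillar collagen. All 12 of their markers were measured, and 0 passed the threshold by limma. An unadjusted p under 0.05 was found in 6, against 13.2% of named genes. With GnRH, 5 of the 12 lay above 0 and 7 below. The groups did not overlap in 1 that was higher (Col1a2) and 4 that were lower, against 17.3% of named genes in either direction. Their summed linear intensity ran from 1779 to 1877 in controls and from 1668 to 1779 with GnRH. The lowest value was 18.5, for Postn, a dim marker and 1 of the 4 that were lower. The endothelial sum, over 5 genes of 6, ran from 614 to 675 in controls and 696 to 785 with GnRH, with no overlap. It followed Plvap, an endothelial membrane protein (0.40, limma adjusted p = 0.267), while the other 4 genes had differences of -0.05 to 0.022. The folliculostellate and stem-like sum, over 5 of 6, ran from 1125 to 1307 against 811 to 993, also with no overlap. Its widest difference was that of Gfap, an intermediate filament protein of glia (-1.97, limma adjusted p = 0.0835). Gfap had 7.92, 8.97 and 8.94 in controls and 7.69, 6.47 and 5.76 with GnRH. Cdh1 was also lower with no overlap (-0.37, limma adjusted p = 0.158). Aldh1a1 had -0.1, while S100b had 0.15 and Sox2 0.018. The posterior lobe sum, over 4 of 4, ran from 447 to 514 against 299 to 432, with no overlap. All 4 of its genes lay below 0, with Avp at -0.57 (limma adjusted p = 0.264) and Oxt at -0.43 (0.347). The macrophage and leukocyte sum, over 5 of 5, ran from 694 to 841 against 748 to 953, and the endocrine sum, over 10 of 10, from 49624 to 54764 against 53290 to 56182. Gnrhr was the only marker of these lists past the threshold. Their part in the Loxl1 and P3h4 values was not tested.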

How the data were processed

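Biotinylated cRNA was made from Trizol-extracted, column-cleaned total RNA and hybridised to 1-colour arrays, per the labels' protocols. The deposited values are intensities on a linear scale, made with RMA per the submitters' processing notes; no software, version or filter is given in the sources used. RMA values are usually log2, and these were not, so log2 was taken with no pseudocount. Quartiles were close but not identical across the 6 arrays (medians 64.5 to 67.0).

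Probe sets were named from the array annotation, updated through gene identifiers to GRCr8: 20826 of 31042 had 1 symbol, 436 several and 9780 none. limma 3.58.1 in R 4.3.3 (lmFit, eBayes) compared GnRH with control over all probe sets, 2-sided, with no covariate or filter and Benjamini-Hochberg adjustment; the threshold was an adjusted p of 0.05. The fit was tested on simulated data with known changes. All member probe sets are named, with the brightest for each list gene and the 2 smallest p-values of each list group. Members and lists, marker lists included, were chosen with earlier results of these data known. Alternatives were other scalings, filters, variance models and subsets of arrays. The replicate numbers of the titles were checked as pairs.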

Additional observations from a re-analysis of the deposited data

How the results depend on the processing

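Loxl1 passed the threshold in all 16 alternatives, with differences of 0.78 to 0.91. P3h4 passed in 13 of 16 on 1369805_at and in 7 of 16 on 1385292_at. Over all probe sets 144 passed; the count was 90 with quantile normalization, 93 with cyclic loess, 74 with a pseudocount of 16, 3020 with array weights, 265 against control 3 alone and 20 (without GnRH 2) to 2309 (without control 3) with 1 array left out. The higher share of calls moved from 131 of 144 to 1763 of 3020 with array weights and 1536 of 2309 without control 3. Member counts, 3 in the reported fit, were 7 with array weights, 1 against control 3 alone and 1 (without control 2 or GnRH 2) to 6 (without control 3) with 1 array left out. The member median of 0.16 became 0.228 with array weights, 0.0494 against control 3 alone and 0.115 to 0.263 with 1 array left out. Of the 59 listed genes that are no members, 1 passed; the count was 2 with dim probe sets left out (Ndrg1 added), 3 with robust variances (P3h3 and Ndrg1 added), 22 with array weights, 2 against control 3 alone and 1 to 16 with 1 array left out.

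Signs turned in values near 0 that did not pass: P4ha2 1375332_at with median centring (0.00805), cyclic loess (0.00961), array weights (0.0382), without control 3 and without GnRH 3 (-0.0558 to 0.0567 with 1 array left out); P4ha2 1372610_at without control 3 (-0.13 to 0.0095 with 1 array left out); Serpinh1 1371310_s_at with quantile normalization (-0.000903); and Plod2 without control 1, control 2 or GnRH 3 (-0.0924 to 0.27 with 1 array left out). Against control 3 alone, Plod1 (-0.22), P4ha1 (-0.23), Plod2 (-0.38) and Loxl2 1380474_at (0.0577) turned. The cause of these changes was not tested. The fit against control 3 alone takes its spread from the GnRH arrays.

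Whether the replicate numbers pair the samples could not be settled. Deviations from the group means correlated at 0.159, -0.049 and 0.156 for numbers 1, 2 and 3, against -0.232 to 0.18 for unlike numbers. Because control 3 stood apart and each group has 3 samples, these correlations cannot exclude pairing. With the number as a replicate block, 215 probe sets passed, the same 3 member probe sets among them, and 3 of the 59 genes (Creb3l1, Dcn and Col1a2). Dim signal limits Loxl2 and Serpinh1 1369009_at, and 3 arrays a group limit all intervals.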
